A study of Mus musculus with 4 samples.

Results

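Calb1 neurons are here the cells of mouse dorsal root ganglia (DRGs) with a clear level of Calb1 and little or no Pvalb, Mrgprd and Sprr1a. They were chosen by these 4 genes alone: in units of UMIs (unique molecular identifiers, counted RNA molecules) per 10000 UMIs of the cell (CP10K), Calb1 was at least 3, Pvalb below 2, Mrgprd below 3, and Sprr1a at most 1 on the natural-log scale, ln(CP10K + 1). Of 23691 deposited cells, 17836 had at least 1500 genes, at least 5000 UMIs and at most 10% mitochondrial UMIs, and 252 of those were Calb1 neurons. The Male-Sham library gave 85 of them, Female-Sham 100, Male-CCI 40 and Female-CCI 27, and other runs of 4 values below keep this order.

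The study asked how gene expression in each kind of DRG neuron changes, in males and in females, when the sciatic nerve is constricted (chronic constriction injury, CCI). Each library is a pool of L4-5 DRGs, 20 from 5 mice of 1 sex, taken 7 days after bilateral sciatic CCI or sham surgery and sorted for GFP+ cells. All animals were PirtEGFPf mice on a C57BL/6 background, 7-8 weeks old, in which farnesylated EGFP stands in place of the Pirt coding sequence under the Pirt promoter, so the sort depends on that promoter, and the mice were heterozygous for this allele. Animals cannot be told apart within a pool, males and females of a litter had 1 surgery in common, and the male and female library of a surgery served as its replicates (n = 2).

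Calb1 encodes calbindin, a cytosolic protein of the EF-hand family that binds and buffers calcium. Sensory neurons of the DRG fall into large neurofilament-rich cells with myelinated fibres, peptidergic cells that release peptides such as substance P and CGRP, and non-peptidergic cells, and each kind carries its own receptors and channels. Sprr1a is among the genes that axon injury turns on most strongly in these neurons, and cells with a high level of it were left out here.

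The libraries held 5019, 8035, 4019 and 6618 deposited cells with 199428489, 237069156, 196661026 and 195684124 UMIs. The Calb1 neurons together gave 2546317, 2303813, 1406800 and 659506 UMIs, so 3 UMIs correspond to 1.18, 1.30, 2.13 and 4.55 CPM, a scale on which every library has the same sum. Their median depth was 23459, 16796, 27104.5 and 20176 UMIs per cell, against 47182.5, 33275, 53197 and 42191.5 in the 12854 other Sprr1a-low neurons, the comparator used throughout. Calb1 neurons were therefore shallower than the comparator in every library. Between 215 and 513 cell barcodes were shared by a pair of libraries, and 0 Calb1 neurons of a library had a barcode that was also a Calb1 neuron in another.

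Calb1 neurons were a small share of all neurons, and the share was lower in both CCI libraries than in both sham libraries. After sham surgery they made up 2.29% of 3709 neurons in males (95% Clopper-Pearson interval 1.83 to 2.83) and 1.60% of 6268 in females (1.30 to 1.94). After CCI they were 1.23% of 3242 neurons in males (0.883 to 1.68) and 0.669% of 4038 in females (0.441 to 0.971). The mean was 1.94% in sham and 0.951% in CCI, a difference of -0.992 percentage points (-0.644 without Male-Sham, and -1.34 to -0.71 without any other library), and the share was left as a description without a test. Among Sprr1a-low neurons alone the shares were 2.34%, 1.66%, 2.68% and 1.40%, a difference of 0.0403 points. With this denominator the share was higher after CCI in males and lower in females, so the sign of the mean depends on which CCI library is taken.

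The Sprr1a limit itself left out almost no cell that met the other 3 limits. It removed 1 of 86 male and 1 of 101 female sham cells, and after CCI 0 of 40 male cells (a count of 0 allows up to 7.50%) and 0 of 27 female cells (up to 11.1%). In the other neurons of the same libraries 1.90%, 3.70%, 54.6% and 52.5% of cells were above the limit. High Sprr1a was thus common among other neurons after CCI. It was not found in the cells of either CCI library with this Calb1, Pvalb and Mrgprd profile. No test is given for this contrast. These counts hold only cells that still met the Calb1 limit. The paper reports that injured neurons lost marker genes, though some kept their identity. Whether injured cells of this kind fell below the Calb1 limit was not tested, so the counts do not show how many were injured. The filters on depth and quality removed 13 of 98, 29 of 129, 4 of 44 and 24 of 51 cells that met all 4 gene limits, so the loss was heaviest in Female-CCI.

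**Figure D1:**
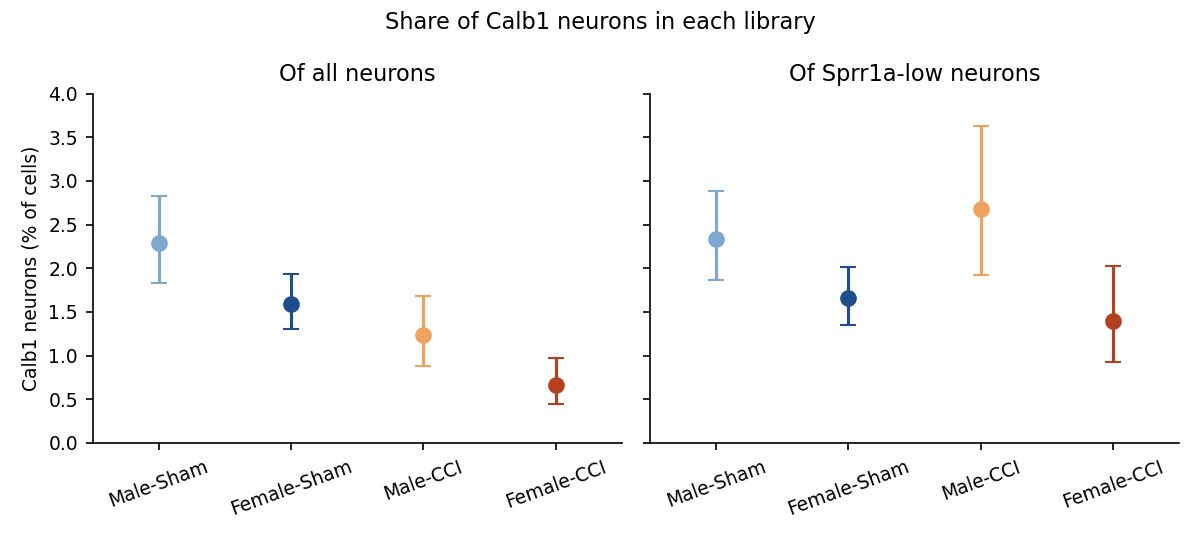
Calb1 neurons as a percentage of all neurons (left) and of Sprr1a-low neurons (right), by library. Points are the measured shares and bars their 95% Clopper-Pearson intervals; on the left both CCI libraries lie below both sham libraries (0.669% to 1.23% against 1.60% to 2.29%), on the right Male-CCI is highest (2.68%) and Female-CCI lowest (1.40%).

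All 8 pan-neuronal markers were found in every library at a summed level of 9847, 9751, 10759 and 10076 CPM, with Uchl1 highest. Calb1 itself, which chose the cells, stood at 1037, 899, 842 and 958 CPM, and single cells ranged from 3.03 to 37.6 CP10K. Only 2 cells with enough Calb1 were kept out by Pvalb and 1 by Mrgprd.

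The genes that set Calb1 neurons apart from other Sprr1a-low neurons included hormone receptors, a heat-gated channel and regulators of transcription. These levels are a description, since the 4 gene limits chose the cells. The 20 genes named here had the largest ratio in their weakest library, among genes with at least 50 CPM in Calb1 neurons of every library. The leading gene was Rxfp1 (chr3:79641611-79737880, mm10, minus strand), the receptor for the peptide hormone relaxin. It stood at 203, 233, 353 and 412 CPM in Calb1 neurons and at 2.24, 1.61, 3.76 and 2.82 CPM in the comparator. Every library showed the difference, by a log2 ratio of 6.51 to 7.19.

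More receptors followed. Prlr, the prolactin receptor (chr15:10177238-10349180, plus strand), stood at 160, 139, 287 and 227 CPM against 8.11, 8.76, 11 and 10.9. Esr1, the nuclear oestrogen receptor alpha, stood at 101, 91.6, 91.0 and 92.5 CPM against 4.17, 2.89, 2.66 and 2.31, with little spread between the sexes. Crhr2, a receptor for the urocortins, lay between 53.1 and 62.5 CPM against 1.01 to 1.55.

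Trpv1, the cation channel opened by heat and capsaicin, stood at 931, 945, 1020 and 973 CPM against 122 to 142 CPM, higher in Calb1 neurons by a log2 ratio of 2.74 to 2.93. The transcriptional regulators Tbx3 (115 to 142 CPM) and Satb1 (244 to 322 CPM) were far below these levels in the comparator (6.39 to 11.4 and 18.0 to 24.5 CPM). Pcp4, a small protein that modulates calmodulin, was the most abundant of the 20 at 4981, 4893, 4399 and 4047 CPM against 472, 411, 300 and 279. Tnni1, a troponin I of slow skeletal muscle, reached 58.5, 97.7, 82.5 and 80.4 CPM while the comparator was at 0.383 to 1.22 CPM. Among the rest were molecules of the cell surface and of adhesion (Ncam2, Ntng1, Negr1, Tenm2), Abi3bp, Thsd7b, Ndst4, Fam19a5, Rasgrp2, Gda and Adprhl1. Gda and Ntng1 belong to a minority: they were at 398 and 350 CPM in the 31 cells with the most Nefh and at 0.422 and 3.59 CPM in the other 221 Calb1 neurons, below the comparator (10.1 to 19.2 and 5.27 to 11.7 CPM).

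**Figure D2:**
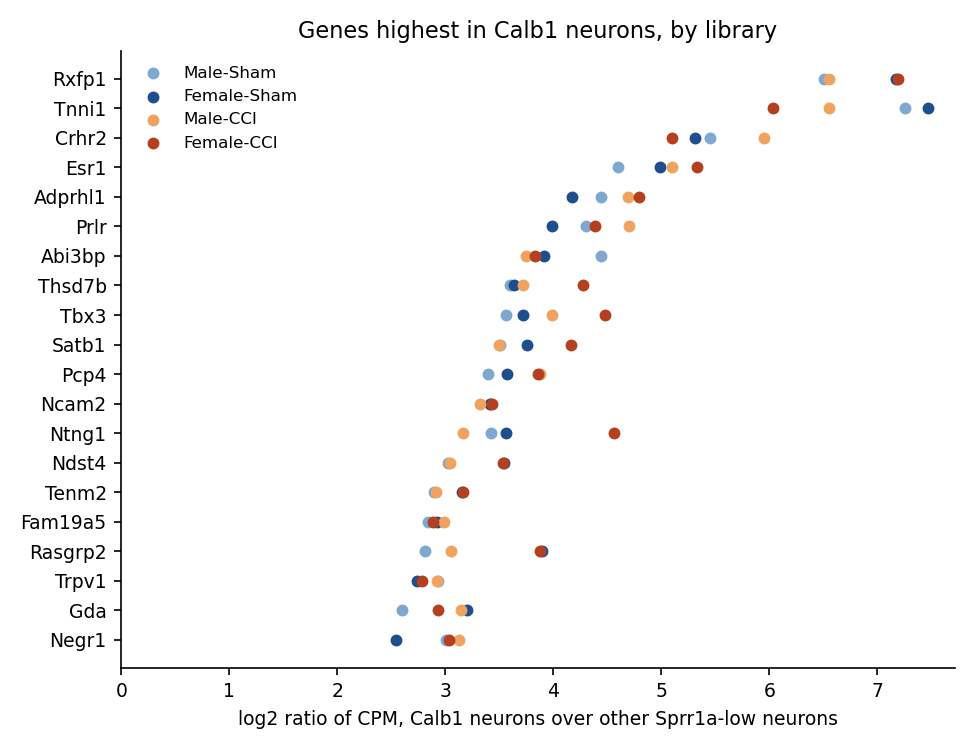
Log2 ratio of CPM in Calb1 neurons over other Sprr1a-low neurons for the 20 leading genes, with 1 point per library. Rxfp1 and Tnni1 lie above 6 in every library, and Negr1 has the smallest ratio in its weakest library (2.55).

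Nefh and Calca, which lead the marker sums of several other neuron classes, stood on opposite sides of the comparator, so those sums are not read as levels of a class. Nefh was at 1091, 1171, 945 and 996 CPM against 253 to 408 in the comparator, but the 31 cells with the most Nefh had 3231 CPM and the other 221 Calb1 neurons 89.9 CPM. Calca, which encodes the peptide CGRP, stood at 218, 353, 54.7 and 106 CPM against 8045, 8750, 8131 and 8758 in the comparator. Tac1, the precursor of substance P, was at 2564, 1590, 1791 and 1313 CPM against 2704, 3125, 2579 and 3246. Without the cells with the most Nefh, which had 34 CPM of Tac1 and 2.3 CPM of Trpv1, Tac1 was at 3672, 2431, 2517 and 1806 CPM, above the comparator in Male-Sham alone. Scn10a, the sodium channel Nav1.8, was at 7.46, 20.0, 1.42 and 7.58 CPM against 197 to 230. Most Calb1 neurons thus carried Tac1 and Trpv1, with less Calca and Scn10a than the comparator.

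Free RNA can place UMIs in cells that do not express a gene, so detection was compared with Fabp7-high cells (at least 100 CP10K of the satellite glia gene Fabp7), each cell thinned to 5000 UMIs. These cells numbered 85, 46, 47 and 41, with a median depth of 6947, 6404.5, 6492 and 6320 UMIs. Calca was found in 48.2%, 44.0%, 20.0% and 44.4% of Calb1 neurons and in 69.4%, 56.5%, 31.9% and 56.1% of Fabp7-high cells. The share was lower in Calb1 neurons in every library. Calb1 neurons were deeper before thinning (medians of 16796 to 27104.5 UMIs), so both kinds of cell are not matched for free RNA. The comparison therefore cannot place Calca in Calb1 neurons above or below free RNA. The Calca UMIs were unevenly spread, with 2 Male-Sham and 5 Female-Sham cells of subcluster 5, at 38.9 to 130.6 CP10K, holding 50.5% and 65.2% of those in their libraries. Without these cells, chosen after their values were seen, Calca was at 109 and 128 CPM in sham, against 54.7 and 106 CPM in CCI, where the highest cell had 4.8 CP10K. Rxfp1 was found in 50.6%, 53.0%, 62.5% and 66.7% of Calb1 neurons and in 0 Fabp7-high cells. Sprr1a was kept low by choice of the cells, so no such comparison is made for it: at full depth 0%, 4%, 57.5% and 40.7% of Calb1 neurons held any Sprr1a UMI.

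The Calb1 neurons were not uniform, and the main divide was Nefh, the heavy neurofilament subunit of large myelinated neurons. Its level had a gap: 221 cells were at or below 4.15 CP10K and 31 cells at or above 19.1. The 31 Nefh-high cells were 10, 14, 4 and 3 by library, or 11.8%, 14%, 10% and 11.1% of Calb1 neurons. They were deep, with a median of 73820 UMIs per cell, and held 31.5% of all UMIs of Calb1 neurons. Trpv1 was detected in 210 of the 221 Nefh-low cells (95%) and in 5 of the 31 Nefh-high cells. Any level over all Calb1 neurons therefore mixes both kinds of cell.

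**Figure D3:**
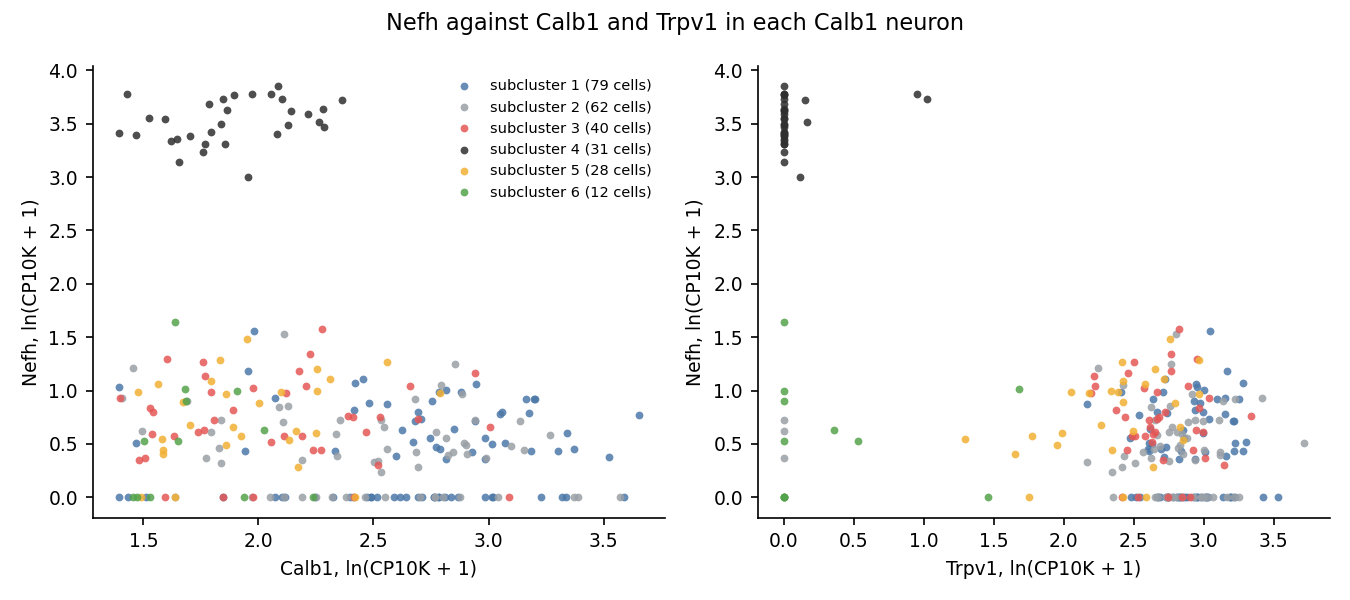
Nefh against Calb1 (left) and against Trpv1 (right) in each of the 252 Calb1 neurons, as ln(CP10K + 1), coloured by subcluster. The 31 cells of subcluster 4 stand alone at high Nefh, and nearly all have no Trpv1.

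Clustering the 252 cells without the 4 limit genes gave 6 subclusters, which are described by their leading genes and left unnamed. Among the leading genes of subcluster 1 (79 cells) were Abi3bp (441 CPM), Tox2 (217 CPM) and Prima1, an anchor of acetylcholinesterase (126 CPM), and it had the highest Trpv1 (1724 CPM). Subcluster 3 (40 cells) had the most Rxfp1 (651 CPM against 185 in all other Calb1 neurons) and Prlr (509 against 120), with the G protein-coupled receptor Gpr83 (86.3 CPM). Both were found in all 4 libraries. Subcluster 1 made up 31.8%, 36%, 15% and 37% of Calb1 neurons, and subcluster 3 made up 17.6%, 10.0%, 27.5% and 14.8%.

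Subcluster 4 is the 31 Nefh-high cells. It led with Gda, which encodes guanine deaminase (398 CPM), Slc17a7, the vesicular glutamate transporter VGLUT1 (377 CPM), the calcium-binding proteins Tesc (700 CPM) and S100b (2270 CPM), and the potassium channel subunits Kcnq3 (183 CPM) and Kcns1 (126 CPM), while Rxfp1 was at 0.459 CPM. Subcluster 6 (12 cells; 4, 6, 2 and 0 by library) had Trpm8, the channel opened by cold and menthol (247 CPM), with the opioid-family precursors Penk (831 CPM) and Pnoc (385 CPM), and it had 0 UMIs of Rxfp1 and Esr1. The same 31 and the same 12 cells came out at all 3 clustering resolutions tried. Pcp4 was high in subclusters 1 to 5 (2861 to 6367 CPM) and low in subcluster 6 (223 CPM).

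Glial RNA and possible doublets ran through the other 2 subclusters. Subcluster 2 (62 cells) led with the satellite glia genes Apoe (11251 CPM) and Fabp7 (3003 CPM) beside Trpv1 (1528 CPM), and it held 27 of the 28 Calb1 neurons with Fabp7 of at least 30 CP10K. Subcluster 5 (28 cells) had Trpv1 (959 CPM), Fxyd2 (1971 CPM) and Apoe (3965 CPM). Its Calca (1127 CPM) was carried by few cells: the median cell had 1.17 CP10K, against 1.24 in subcluster 1. In subcluster 5, 42.9% of cells were among the 15% with the highest doublet scores, against 12.9% in subcluster 4 and 0 cells in the other subclusters. Over all Calb1 neurons the 10 satellite glia markers, each of them detected in every library, summed to 7162, 6207, 5759 and 5193 CPM, with Apoe highest. The comparator, from which cells with Fabp7 of at least 30 CP10K were left out while Calb1 neurons had no such limit, was at 3773, 4208, 2945 and 2914 CPM. The part of glial RNA and doublets in the levels above was not tested.

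**Figure D4:**
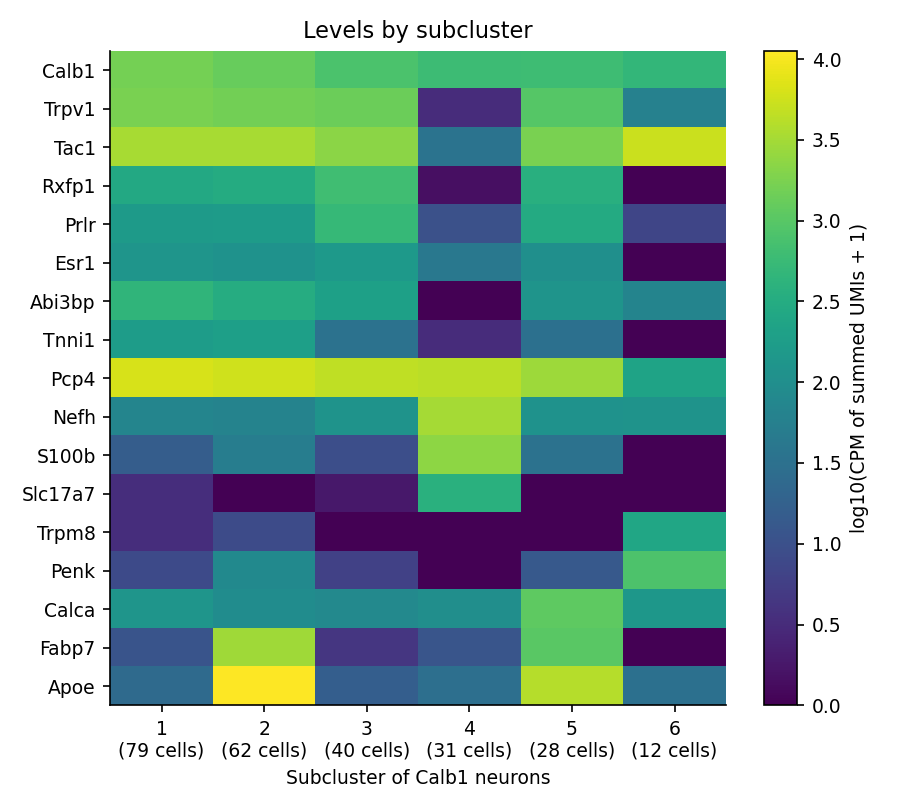
Levels of selected genes in the 6 subclusters of Calb1 neurons, as log10(CPM + 1) of summed UMIs. Nefh, S100b and Slc17a7 mark subcluster 4, Trpm8 and Penk mark subcluster 6, and Fabp7 and Apoe are high in subclusters 2 and 5.

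Cells on either side of the Calb1 limit shared some of these genes and differed in others. The 40 cells just outside, with Calb1 of 2 to 3 CP10K, had 706 CPM of Trpv1, 291 CPM of Rxfp1, 581 CPM of Nefh and 94.7 CPM of Trpm8. The 31 cells just inside, at 3 to 4 CP10K, had 904, 219, 838 and 15.4 CPM in the same order. Trpv1 and Rxfp1 were thus present on both sides, while Trpm8 was higher outside. Nefh was highest at 4 to 5 and 5 to 10 CP10K of Calb1 (1809 and 1645 CPM) and low in the 112 cells with 10 CP10K or more (69.6 CPM), which had 1574 CPM of Trpv1 and no Nefh-high cell.

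In Calb1 neurons 21 genes rose and 8 fell after CCI, of 10264 tested. Among those that rose were the injury-associated genes Sox11, Gal and Cdkn1a and the receptors Rxfp1 and Prlr, and among those that fell were the metallothioneins Mt1 and Mt3. Calls were made by edgeR at an adjusted p below 0.05 and an absolute log2 fold change above 0.5, on UMIs summed per library. They amount to 0.283% of genes tested, 0.205% higher and 0.0779% lower, and 937 genes had an unadjusted p below 0.05. The balance of directions varied between fits: DESeq2 called 14 higher and 12 lower, and leaving out Male-Sham, Female-Sham, Male-CCI or Female-CCI gave 33, 30, 14 and 62 higher and 37, 21, 26 and 28 lower.

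Sox11, a transcription factor of growing axons (chr12:27334264-27342574, minus strand), stood at 62.4 and 68.6 CPM in sham and at 145 and 139 CPM in CCI, and rose by a log2 fold change of 1.13 ± 0.15 (SE, n = 2 per group, adjusted p = 0.000607). The groups did not overlap and the sexes were close. Gal, which encodes the neuropeptide galanin, went from 42.0 and 48.6 to 86.7 and 100.1 CPM (log2 1.03 ± 0.17, adjusted p = 0.00727). Sox11 and Gal each kept their call in 13 of 16 alternatives. Neither was called with each cell thinned to 5000 UMIs (1.08 and 1.13) or at most 5% mitochondrial UMIs (1.14 and 0.37). Sox11 was also not called at Calb1 of at least 5 CP10K (0.93). Cdkn1a, the cell cycle inhibitor p21, went from 43.2 and 39.1 to 77.5 and 83.4 CPM (log2 0.96 ± 0.18, adjusted p = 0.0174), but it kept this call in only 8 of 16 alternatives: it was not called without Male-CCI (0.99) or without the highest doublet scores (0.53), and was at -0.12 with each cell thinned to 5000 UMIs. Gal was also found more often after CCI in cells that should lack it: in 8.24%, 4.35%, 25.5% and 58.5% of thinned Fabp7-high cells. In Calb1 neurons it was found in 20%, 15%, 30% and 44.4%, near the share of Fabp7-high cells in Male-CCI and below it in Female-CCI. Fabp7-high cells had no Sprr1a limit, and at full depth 21.3% of them in Male-CCI and 29.3% in Female-CCI held a Sprr1a UMI. Sox11 was found in 36.5%, 30%, 45% and 63% of Calb1 neurons and in only 0%, 2.17%, 6.38% and 4.88% of Fabp7-high cells.

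Of 31 genes of the nerve injury list tested, 4 rose (Sox11, Gal, Cdkn1a and Ecel1) and 0 fell by edgeR, 13 had an unadjusted p below 0.05, all of them higher, and DESeq2, which gave Sox11, Gal and Cdkn1a no adjusted p, called 0. Over all genes 0.283% were called and 0.205% rose. The median log2 fold change was 0.65, against 0.01 over all genes tested. The list includes genes that the paper reports as markers of CCI-induced clusters in these same libraries, among them Sox11 and Ecel1. Its direction is therefore not independent of these data. Ecel1, an endopeptidase-like membrane protein, had 2, 0, 24 and 4 UMIs, in 1, 0, 3 and 3 cells. After thinning it was found in 1, 0, 1 and 2 Calb1 neurons and in 0, 0, 1 and 0 Fabp7-high cells, so its rise rests on few cells. Atf3, a transcription factor widely used to mark injured neurons, was not called, at 42.4, 56.4, 128 and 40.9 CPM: Male-CCI alone was high. After thinning it was found in 11.8%, 20%, 17.5% and 14.8% of Calb1 neurons and in 15.3%, 43.5%, 17% and 56.1% of Fabp7-high cells. Detection in Calb1 neurons was thus near or below that in Fabp7-high cells, which had no Sprr1a limit. Gap43 and Tnfrsf12a were also highest in Male-CCI and were not called. In the comparator 27 of 45 genes of the list rose, with a median of 0.99, and 5.31% of all 16597 genes tested were called there (3.78% higher, 1.53% lower). With the comparator thinned to the cell numbers of Calb1 neurons, 20 genes of all kinds were called in place of 882.

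The receptors Rxfp1, Prlr and Unc5d and the adhesion molecule Tenm1 also rose. Rxfp1, at 203 and 233 CPM in sham and 353 and 412 CPM in CCI, rose by a log2 fold change of 0.81 ± 0.13 (adjusted p = 0.00474). Prlr, at 160 and 139 CPM in sham and 287 and 227 CPM in CCI, rose by 0.81 ± 0.15 (adjusted p = 0.0157). So 2 of the genes that set Calb1 neurons apart were higher still in both CCI libraries, although Prlr was not called without Male-CCI (log2 0.58). In the comparator Rxfp1 also rose, by 0.76 ± 0.20, and was called, while Prlr was higher by 0.36 ± 0.07, under the fold limit. The comparator can include cells just under the Calb1 limit. Rxfp1 was at 291 CPM in cells with 2 to 3 CP10K of Calb1 and at 1.04 CPM in cells without Calb1 UMIs. The part of such cells in the comparator's rise was not tested. Subcluster 3, with the most Rxfp1 and Prlr, made up 17.6% and 10% of Calb1 neurons in sham and 27.5% and 14.8% in CCI. Its part in the rises within Calb1 neurons was not tested. Esr1, by contrast, was level in all 4 libraries (91.0 to 101 CPM) and was not called. Unc5d, a netrin receptor, went from 48.7 and 53.0 to 94.5 and 89.5 CPM (log2 0.87 ± 0.17, adjusted p = 0.0218), and was not called without Male-CCI (0.80). Tenm1, a teneurin of cell adhesion, went from 59.3 and 58.6 to 107 and 94.0 CPM (log2 0.79 ± 0.16, adjusted p = 0.0315). It kept this call in 8 of 16 alternatives, over which its log2 fold change was 0.65 to 1.25. Those that ended the call included leaving out Female-Sham (0.76) or Male-CCI (0.65).

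Mt1 and Mt3, metallothioneins that bind zinc and copper, fell, while Mt2 was not called (54.2, 58.6, 46.2 and 42.5 CPM). Mt3 (chr8:94152607-94154146, plus strand) stood at 1954 and 1921 CPM in sham and at 1168 and 1084 CPM in CCI, a log2 fold change of -0.77 ± 0.10 (adjusted p = 0.000601). Mt1 stood at 192 and 261 CPM in sham and at 133.6 and 119.8 CPM in CCI (log2 -0.81 ± 0.16, adjusted p = 0.0249). Mt3 is also one of the 10 satellite glia markers, so their summed level, lower in CCI, holds the fall of Mt3 itself. Apoe, the highest of these markers, was at 3143, 2372, 2541 and 2226 CPM. The part of glial RNA in the fall of Mt3 was not tested. In cells with Fabp7 below 1 CP10K the fall of Mt3 was still called, while Mt1 was at -0.16 and not called. Mt1 was also not called with Fabp7 below 30 CP10K and Ptprc below 1 (-0.58), or without Female-Sham (-0.60). Tstd1, which carries a rhodanese domain, fell the most of the genes named, from 75.8 and 70.3 to 31.3 and 40.9 CPM (log2 -1.06 ± 0.20, adjusted p = 0.0182), and was not called without Male-CCI (-0.86).

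Of the 13 mitochondrially encoded genes, 4 rose (mt-Nd1, mt-Nd2, mt-Nd3 and mt-Co3) and 2 fell (mt-Atp8 and mt-Nd4l), with a median of 0.40, where 0.283% of all genes tested were called. Mt-Nd3, a subunit of complex I, stood at 495 and 568 CPM in sham and 938 and 1083 CPM in CCI, while mt-Nd4l, of the same complex, stood at 599 and 804 CPM in sham and 365 and 361 CPM in CCI. The transcripts of mt-Atp8 and mt-Nd4l overlap those of neighbouring genes, so counts for them are uncertain. The median mitochondrial share per cell was also higher in CCI, at 5.30%, 5.64%, 6.62% and 7.40%, and its part in these changes was not tested. By contrast, edgeR called 0 of the 89 nuclear genes of oxidative phosphorylation (27 had an unadjusted p below 0.05, 26 of them lower, and DESeq2 called 0), with a median of -0.16, and at the overall share under 1 call would fall to a list of that size. Usmg5, which encodes a subunit of the mitochondrial ATP synthase and is not on that list by its symbol, fell from 1044 and 1012 to 681 and 544 CPM, and Tomm7, of the mitochondrial import pore, fell from 454 and 451 to 307 and 280 CPM.

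Of 92 cytosolic ribosomal protein genes, 5 rose and 1 fell (Rpl41), with a median of -0.02, against 0.283% of all genes tested. Rpl41 stood at 1973 and 1965 CPM in sham and 1425 and 1186 CPM in CCI. Ribosomal genes have many processed copies in the genome, so counts for single members are uncertain. The long noncoding RNAs Meg3 (2978 and 3248 CPM in sham, 5392 and 5348 CPM in CCI, log2 0.79 ± 0.09, adjusted p = 0.000241) and Kcnq1ot1 (122 and 153 against 217 and 229 CPM) also rose, as did Ankrd12. Gm8797, a predicted gene, had the largest fold among the named genes, from 5.10 and 7.81 to 47.6 and 42.5 CPM (log2 2.83 ± 0.30).

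**Figure D5:**
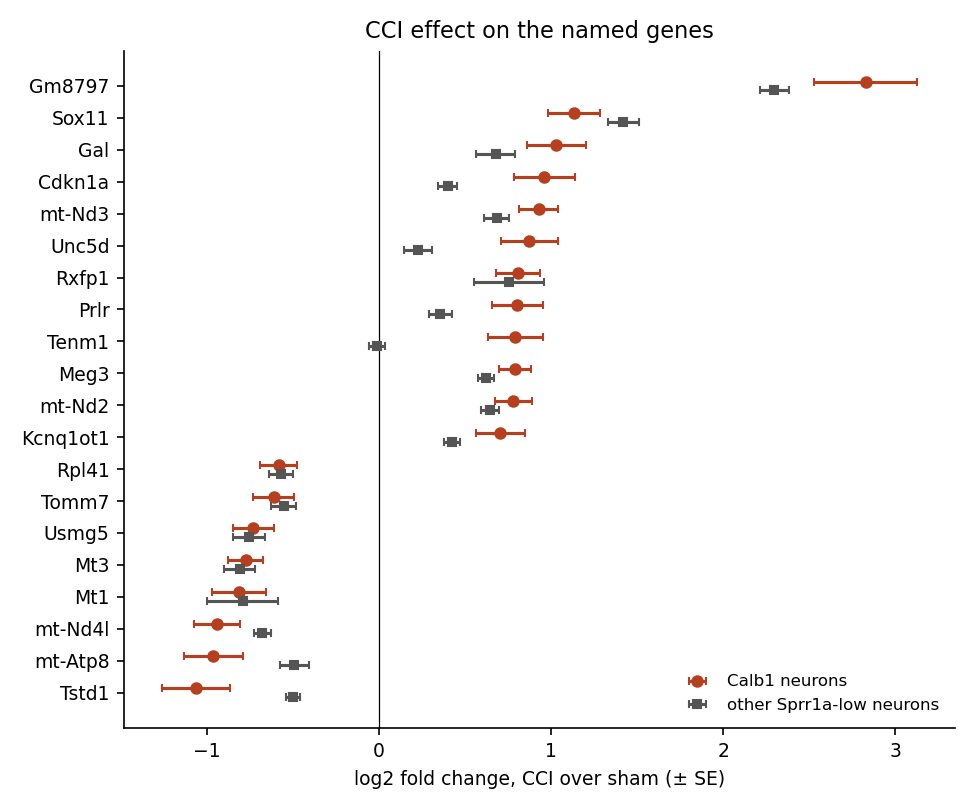
Log2 fold change of CCI over sham with its SE for the 20 named genes, in Calb1 neurons (circles) and in other Sprr1a-low neurons (squares), n = 2 libraries per group. Gm8797 is farthest to the right (2.83), Tstd1 farthest to the left (-1.06), and Tenm1 is the gene whose comparator value lies at 0 (-0.01).

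Ion channels and calcium-handling genes showed no call in Calb1 neurons, where at the overall share of 0.283% all these lists together would hold under 1 call. EdgeR called 0 of 34 EF-hand proteins other than Calb1 (5 at an unadjusted p below 0.05; median -0.07), 0 of 27 calcium pumps, exchangers and store genes (3; -0.12) and 0 of 11 voltage-gated calcium channel genes (3; 0.04). It called 0 of 14 sodium channel genes (3; 0.06), 0 of 41 potassium channel genes (6; -0.03) and 0 of 18 transduction channel genes (1; -0.09). Trpv1, the most abundant of these transduction channels, was level across the libraries at 931 to 1020 CPM. DESeq2 also called 0 genes in each of these lists, but its own filter left 9153 genes without an adjusted p.

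Receptor, peptide and regulator lists were likewise mostly without calls, again at an overall share of 0.283%. EdgeR called 0 of 9 neurotrophic factor receptors (3 at an unadjusted p below 0.05; median -0.17), 0 of 22 glutamate and GABA receptor genes (5; -0.04), 0 of 19 neurofilament and myelinated-fibre genes (5; -0.01), 0 of 29 sensory neuron transcription factors (0; 0.08) and 0 of 16 immediate early genes (3; -0.19), and DESeq2 called 0 in each. Of 13 neuropeptides and peptide receptors, 1 rose (Gal), with a median of 0.25, while DESeq2 called Calca alone. Ret, the receptor tyrosine kinase of GDNF-family ligands, was the most abundant neurotrophic receptor, at 170, 254, 207 and 220 CPM.

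Leaving out Male-Sham, Female-Sham, Male-CCI or Female-CCI gave 70, 51, 40 and 90 genes called, and 18, 18, 13 and 19 of the 20 named genes kept their call. Besides those given above, Kcnq1ot1 (0.55) and Tomm7 (-0.60) were not called without Male-Sham, Kcnq1ot1 (0.72) and mt-Atp8 (-0.80) without Male-CCI, and Rpl41 (-0.45) without Female-CCI. With sex as a replicate block 10 genes were called in place of 29, and 8 of the 20 named genes kept their call: Gm8797, Sox11, mt-Nd2, mt-Nd3, mt-Atp8, Rxfp1, Meg3 and Mt3. Gal, Cdkn1a, Prlr, Unc5d, Tenm1, Mt1 and Tstd1 were among the 12 that lost it.

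The Nefh-low majority gave a longer list of changes when taken alone. Without the 31 Nefh-high cells, an alternative chosen after seeing the data, 87 genes were called, 34 higher and 53 lower, and 23 of the 29 were among them. Rxfp1 stood at 292, 359, 496 and 572 CPM in the Nefh-low cells (log2 0.68, adjusted p = 0.00169), and Prlr at 229, 213, 390 and 315 CPM (log2 0.66, adjusted p = 0.0039). Among all alternatives to the fit on all Calb1 neurons, which include this fit, the highest adjusted p was 0.731 for Rxfp1 and 0.748 for Prlr. Both receptors were thus higher in both CCI libraries among the Nefh-low cells alone. Cdkn1a was no longer called (log2 0.63, adjusted p = 0.0889), and its highest adjusted p among all alternatives to the fit on all Calb1 neurons was 0.973.

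Further genes were called in the Nefh-low cells alone, of which a few are named here after their values were seen. Nefm, the medium neurofilament subunit, rose from 603 and 529 to 873 and 763 CPM (log2 0.51, adjusted p = 0.00818, against 0.671 in all Calb1 neurons). Onecut2, a transcription factor, rose from 53.6 and 53.7 to 93.0 and 111 CPM (log2 0.87, adjusted p = 0.00874, against 0.152). Vgf, the precursor of several secreted peptides, went from 10.2 and 13.4 to 30 and 29.4 CPM (log2 1.32, adjusted p = 0.0366, against 0.878).

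Whether CCI acted differently on Calb1 neurons than on other Sprr1a-low neurons was tested by the interaction, with library as a term. Of 15635 genes, 19 were called (0.122%), 9 with a higher effect in Calb1 neurons (0.0576%) and 10 with a lower effect (0.064%). Of the 29 genes that CCI changed in Calb1 neurons, 18 were also called in the comparator, all in the same direction, where 5.31% of all genes were called. The sign was the same there for 28 of the 29. Only 1 of the 29 was among the 19, Tenm1. It was level in the comparator at 44.8, 45.4, 47.3 and 43.6 CPM, and the difference of effects was 0.77 ± 0.18 (adjusted p = 0.0291), but it was not called in any of the 4 fits that left out 1 library (0.68 to 0.82). Rxfp1, Sox11, Mt3 and Meg3 were not called, with differences of 0.01 ± 0.17, -0.31 ± 0.17, 0.01 ± 0.15 and 0.14 ± 0.15.

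Of the other genes among the 19, none passed the edgeR test of CCI against sham in Calb1 neurons. Wfdc17, Lyz2, C1qb, Chrm2 and Hspb7 were not tested there. Ighm, an immunoglobulin heavy chain constant region, stood at 38.5, 38.6, 41.9 and 51.6 CPM in Calb1 neurons and fell in the comparator from 7.03 and 9.76 to 4.03 and 3.6 CPM (difference 1.36 ± 0.29, adjusted p = 0.00766). S100a6, an EF-hand protein, was at 1622, 1527, 1901 and 1844 CPM in Calb1 neurons and at 7375, 7986, 5856 and 5704 CPM in the comparator (difference 0.66 ± 0.15, adjusted p = 0.0203). Ngfr, the low-affinity neurotrophin receptor p75, was at 86.0, 127, 60.4 and 66.7 CPM in Calb1 neurons and at 161, 153, 175 and 180 CPM in the comparator (difference -0.91 ± 0.19, adjusted p = 0.00498). Of these 3 genes, Ngfr was not called without Nefh-high cells (-0.40), which this fit also left out of the comparator. Leaving out Female-Sham ended the calls of Ighm (1.09), S100a6 (0.52) and Ngfr (-0.62), leaving out Male-CCI those of S100a6 (0.61) and Ngfr (-0.90), Male-Sham that of S100a6 (0.79) and Female-CCI that of Ighm (1.19). With the comparator thinned to the cell numbers of Calb1 neurons 8 genes were called, and leaving out each library in turn gave 33, 9, 17 and 31.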

How the data were processed

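Single-cell 3' RNA was measured in 4 libraries, 2 sham and 2 CCI. The authors made UMI counts with Cell Ranger on mm10, and the deposited matrices hold whole counts for 31053 genes and called cells, with no further filter. The members and lists were chosen with earlier results of these data known. Cell limits are given in the text. The comparator is cells past the same filters with the same Sprr1a limit, Fabp7 below 30 and Ptprc below 1 CP10K, that are not Calb1 neurons.

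UMIs were summed per library and compared with edgeR 4.0.16 (R 4.3.3; robust quasi-likelihood, TMM, filterByExpr), adjusted by Benjamini-Hochberg over all genes kept. The 4 limit genes were left out of calls. Named genes are the 12 largest rises and 12 largest falls (8 were called) with a mean of at least 20 CPM and the same direction in both sexes, and for the interaction the 5 highest and 5 lowest called with at least 20 CPM in Calb1 neurons (4 were higher). Other genes were chosen after their values were seen. Subclusters used scanpy 1.11.5 and leidenalg 0.10.2 (2000 variable genes, 15 components, 15 neighbours, resolution 0.8, library means removed), and doublets were scored by Scrublet. Scrublet's automatic limit called only 2, 121, 0 and 0 deposited cells doublets, so ranks were used. Positions are from GENCODE M21. Intervals and the count of 3 used for zeros cover counting error only. Alternatives were DESeq2 1.42.0, other normalization, filters, limits and resolutions, sex as a replicate block, and leaving out each library.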

Additional observations from a re-analysis of the deposited data

Results flagged for a closer look

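The effect of CCI differed between Calb1 neurons and other Sprr1a-low neurons by the interaction test for the 9 genes named by rule, which are singled out for that reason. As log2 effect in Calb1 neurons minus log2 effect in the comparator, it was lower for Calca (-1.91), Bcat1 (-1.15), Arxes1 (-0.95), Trappc3l (-0.94) and Ngfr (-0.91), and higher for Ighm (1.36), Gpsm3 (0.79), Tenm1 (0.77) and S100a6 (0.66).

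Calca, which encodes CGRP, was at 218, 353, 54.7 and 106 CPM in Calb1 neurons, and 2 Male-Sham and 5 Female-Sham cells held 50.5% and 65.2% of its UMIs there. Without Nefh-high cells, left out of both Calb1 neurons and the comparator, the difference for Calca was -2.24 and was not called. Bcat1, a cytosolic aminotransferase of branched-chain amino acids, was at 47.9, 56.0, 31.3 and 57.6 CPM in Calb1 neurons and rose in the comparator, from 6.33 and 5.49 to 9.81 and 11.4 CPM. In the same fit the difference for Bcat1 was 0.91 and was not called. Arxes1 was at 40.1, 34.3, 23.5 and 44.0 CPM, and its near copy Arxes2 makes its count uncertain. Trappc3l was at 93.5, 64.7, 47.6 and 69.8 CPM and Gpsm3 at 69.9, 75.5, 80.3 and 97.0 CPM in Calb1 neurons. Of 4 fits that left out 1 library, Calca was called in 4, Bcat1, Trappc3l, Ngfr and Ighm in 2, Arxes1 and S100a6 in 1, and Tenm1 and Gpsm3 in 0. With the comparator thinned to the cell numbers of Calb1 neurons, Ngfr alone of the 9 was called, but it was not called without Nefh-high cells (-0.40).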

How the results depend on the processing

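The count of 29 genes called in Calb1 neurons was 26 with DESeq2, 27 with RLE normalization, 30 without the highest doublet scores and 22 with at least 10000 UMIs per cell. It was 85 with no filter on low counts, 10 with sex as a replicate block, 10 at Calb1 of at least 5 CP10K, 677 with 0 Sprr1a UMIs (17 and 16 CCI cells left), 44 at most 5% mitochondrial UMIs (3 and 3 CCI cells left) and 15 with Fabp7 below 1 CP10K. Alternatives added after seeing the data gave 87 without Nefh-high cells, 28 with the comparator's Fabp7 and Ptprc limits and 18 with each cell thinned to 5000 UMIs. Leaving out each library gave 40 to 90, where the lone sample of a group is assumed to vary like the others.

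In the comparator 882 genes became 20 at matched cell numbers. The 19 genes called by the interaction became 32 without the highest doublet scores, 419 with 0 Sprr1a UMIs, 8 at matched cell numbers, 31 without Nefh-high cells, 3 with thinned cells, and 9 to 33 without 1 library. The difference in share was 0.0403 points among Sprr1a-low neurons, where males were higher and females lower after CCI. The Sprr1a-high share among cells meeting the other limits, -1.08 points, was 0 without the highest doublet scores, at Calb1 of at least 5 and at most 5% mitochondrial UMIs, and -1.22 with at least 10000 UMIs. The 6 subclusters were 5 at resolution 0.4 and 10 at 1.2.

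Over 332 results of CCI against sham for the 20 named genes, 255 kept direction and call and 76 kept direction alone. Only 1 reversed: Cdkn1a, at -0.12 with each cell thinned. Meg3 and Mt3 kept their call in 17 of 17 alternatives, and DESeq2 gave 13 of the 20 an adjusted p and called all 13. The causes of these differences were not tested. Depth limits the smallest group most: in Female-CCI 27 cells gave 659506 UMIs.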

Other observations

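Fcer1g, an adaptor subunit of immune receptors, was found in Calb1 neurons at 114, 55.1, 107 and 19.7 CPM while the comparator was below 1 CPM in every library. It was highest in subcluster 3 (202 CPM) and at 0 CPM in subcluster 4. Ptprc, the pan-leukocyte marker, had 0 UMIs in Calb1 neurons of all 4 libraries. Other immune markers were found in Male-CCI almost alone, with Cd74 at 16.4 CPM, Lyz2 at 19.2 CPM and C1qb at 12.8 CPM, and in the interaction test Lyz2 and C1qb were among the genes called.

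Calb2, which encodes calretinin, was at 0, 11.3, 49.8 and 1.52 CPM in Calb1 neurons and below 0.1 CPM in the comparator. Pdyn, the dynorphin precursor, was higher in the 2 female libraries, at 6.68, 31.3, 8.53 and 30.3 CPM, and at most 0.134 CPM in the comparator. These genes were chosen after their values were seen, and the difference between the sexes was not tested.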
